A study of Saccharomyces cerevisiae with 6 samples.

Results

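The comparison set a triploid yeast strain, with an odd number of chromosome sets, against a diploid and a tetraploid strain, whose sets are even in number and average the same 3 sets. Its members were the 3 run-on arrays of the triploid sample and the 6 run-on arrays of the diploid and tetraploid samples, chosen by the sample titles, which makes 9 of the 18 run-on arrays and 3 of the 6 samples of the series. The measurement was genomic run-on in Saccharomyces cerevisiae, in which permeabilised cells were given 33P-labelled UTP so that engaged RNA polymerases extended their transcripts, and this RNA was then hybridised to membranes, made by the submitters, on which whole open reading frames were spotted. Each array holds 6144 spots. The diploid was strain PY4993, the triploid PY4997 and the tetraploid PY4996. All 3 are labelled wild type, carry no named allele or treatment, and were grown in the rich medium YPD to exponential phase. The other samples were the haploid wild type BY4741 and deletion mutants of cln3 and whi5, and their 9 arrays entered here through the shared estimate of spread, the link between membranes and, for the haploid, 1 reference comparison. For the cln3 deletion the source label speaks of wild-type cells and KCl, against its own title and strain label, which name the deletion. Each ploidy is 1 strain. The labels give neither mating type nor whether the strains share a parent, so strain and chromosome number cannot be told apart. Nor do they state whether a strain's 3 arrays stem from separate cultures, and the p-values below can only reflect how far these arrays spread, which may be technical.

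Ploidy is the number of complete chromosome sets in a cell. In yeast, cell volume rises with ploidy, and a cell with more sets carries more copies of every gene. Cells with an odd number of sets cannot pair all homologous chromosomes in meiosis and yield many aneuploid spores, whereas mitotic growth does not require homologous chromosomes to pair. Run-on signal reports how many polymerases are engaged on a gene, apart from how stable its RNA is.

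No spot on the array passed the test between odd and even chromosome sets, and the triploid arrays overlapped those of the other polyploids in overall run-on level, in the spread of their spots and in their distance from array to array. At the median spot the triploid differed from the mean of the diploid and tetraploid by 0.12 on the log2 scale, or 1.09-fold, in either direction. The 95% interval of the difference lay inside a 2-fold change in both directions at 5130 of 5929 tested spots, or 86.5%. A 1.5-fold change was excluded in this sense at 45.2% of spots and a 1.25-fold change at 1.10%. These differences are relative to the median of each array, so they do not bound a shift shared by all spots. The interval for the difference in overall level ran from -0.54 to 1.28 on the log2 scale. The files name spots only by their place on the membrane, as 1 of 16 block rows, 1 of 24 block columns and a position in the block, so no gene, pathway or chromosome is named for any spot, and no marker gene was available to check the labelled strains.

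The spot values were log2 ratios of the run-on density, less its background, to the genomic DNA density on the same membrane. The median of this ratio over an array gave its overall level before centring. The diploid arrays had levels of 1.13, 0.29 and 1.06, with a mean of 0.83 ± 0.46 (SD, n = 3). The triploid arrays had levels of 0.58, 1.04 and 1.98, with a mean of 1.20 ± 0.72 (SD, n = 3). The tetraploid arrays had levels of 0.85, 0.21 and 1.43, with a mean of 0.83 ± 0.61 (SD, n = 3). The highest of the 9 was triploid array 3, while the other triploid arrays lay within the range of the 6 even arrays. The triploid mean was higher than the mean of the 6 even arrays by 0.37, less than the SD within either set, and a two-sided exact permutation test over the 84 ways to choose 3 of 9 arrays gave p = 0.381 (0.905 after Benjamini-Hochberg adjustment over 3 array measures, with 0.0119 the smallest p the design allows). The interval obtained by inverting the same test ran from -0.54 to 1.28. Without triploid array 3 the difference was -0.02, and without triploid array 1 it was 0.68. On run-on signal alone, with no division by genomic DNA, it was 0.11 (exact permutation p = 0.774), and with the mean genomic DNA of the membranes as the divisor it was 0.12. On membrane 18, which held an array of each strain, the triploid was lower than the diploid by 0.48 and higher than the tetraploid by 0.36. On membrane 12, the other membrane shared with an even strain, it was 0.39 lower than the tetraploid. The within-membrane differences thus ran in both directions. The ratio does not count gene copies, because the 18 deposited genomic DNA files are copies of 7 hybridisations, 1 per membrane, that belong to no strain. A level here is signal per membrane and not per cell.

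**Figure D1:**
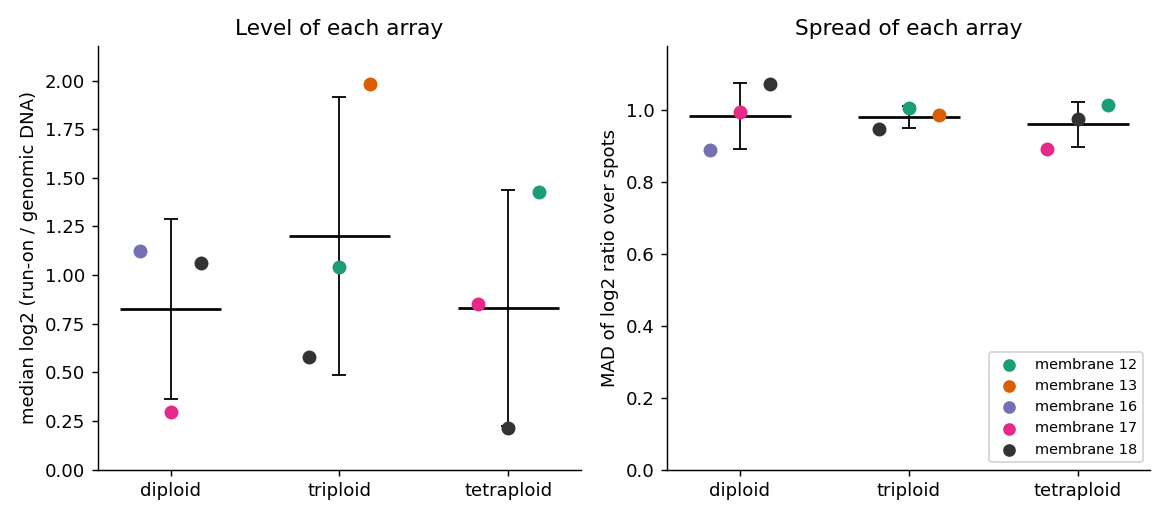
Array median of log2 run-on over genomic DNA (left) and median absolute deviation (MAD) of the log2 ratio over spots (right) for each of the 9 arrays, coloured by membrane, with bars for the strain mean and SD (n = 3). In the left panel the highest point is triploid array 3 at 1.98, and in the right panel all arrays lie between 0.887 and 1.07.

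Signal depth and the spread of spots overlapped between the sides. Median run-on signal ranged from 55.8 (triploid array 2) to 166.4 (triploid array 3) in the deposited density units, and the share of spots with a deposited signal-to-noise score (S/N) of at least 2 ranged from 74.3% (triploid array 2) to 83.7% (tetraploid array 1). That share averaged 79.3 ± 4.34% in the triploid (SD, n = 3) and 80.1 ± 2.57% in the even strains (SD, n = 6), with an exact permutation p of 0.762 (0.905 adjusted). The spread between spots on an array, as the MAD of its log2 ratios, was 0.946, 1.01 and 0.985 in the triploid, 0.887, 0.993 and 1.07 in the diploid, and 0.892, 0.974 and 1.01 in the tetraploid. The 3 triploid values lay inside the range of the other 6, as the plot of level and spread shows. The mean difference was 0.0074, from 0.979 ± 0.030 (SD, n = 3) against 0.972 ± 0.071 (SD, n = 6), with an exact permutation p of 0.905 (0.905 adjusted). Its interval ran from -0.11 to 0.11. Its sign turned without diploid array 1 (-0.0095), triploid array 2 (-0.0062) or tetraploid array 1 (-0.0086).

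Distances among the 3 triploid arrays overlapped their distances from arrays of the even strains. The distance between 2 arrays was taken as the MAD over spots of their log2 differences, where 0 means identical profiles. Triploid arrays 1 and 2 lay 0.593 apart, arrays 1 and 3 lay 0.597 apart, and arrays 2 and 3 lay 0.427 apart. The 15 pairs of a triploid and an even array on different membranes had a median distance of 0.493, from 0.355 to 0.628. All 3 distances within the triploid fell inside that range. Triploid array 1 lay nearer to the other run-on 1 arrays, at 0.397 from diploid array 1 and 0.370 from tetraploid array 1, than to either other triploid array. The same held for arrays of other run-on numbers, at 0.543 from diploid array 2, 0.513 from diploid array 3 and 0.442 from tetraploid array 2. Only tetraploid array 3 lay farther, at 0.628. The closest pairs of all were of different strains on a shared membrane, though the 5 such pairs ran from 0.226 to 0.513. Triploid array 2 and tetraploid array 3, both on membrane 12, lay 0.228 apart, with a correlation across spots of 0.965. Diploid array 3 and tetraploid array 2, both on membrane 18, lay 0.226 apart. Triploid array 1, on membrane 18 as well, lay 0.513 from that diploid array and 0.442 from that tetraploid array. In all, the median distance was 0.517 for the 9 pairs of the same strain on other membranes, 0.468 for the 22 pairs of other strains on other membranes and 0.411 for the 5 pairs of other strains on the same membrane. Spots share these libraries and membranes, so the distances are given as a description with no test. Division by genomic DNA cannot alter a distance on a shared membrane. Without that division the first 2 medians were 0.605 and 0.571. Pairs of the same strain never shared a membrane or a run-on number, whereas some pairs of other strains on other membranes shared a run-on number. The part of run-on number and of membrane in these distances was not tested apart from strain.

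**Figure D2:**
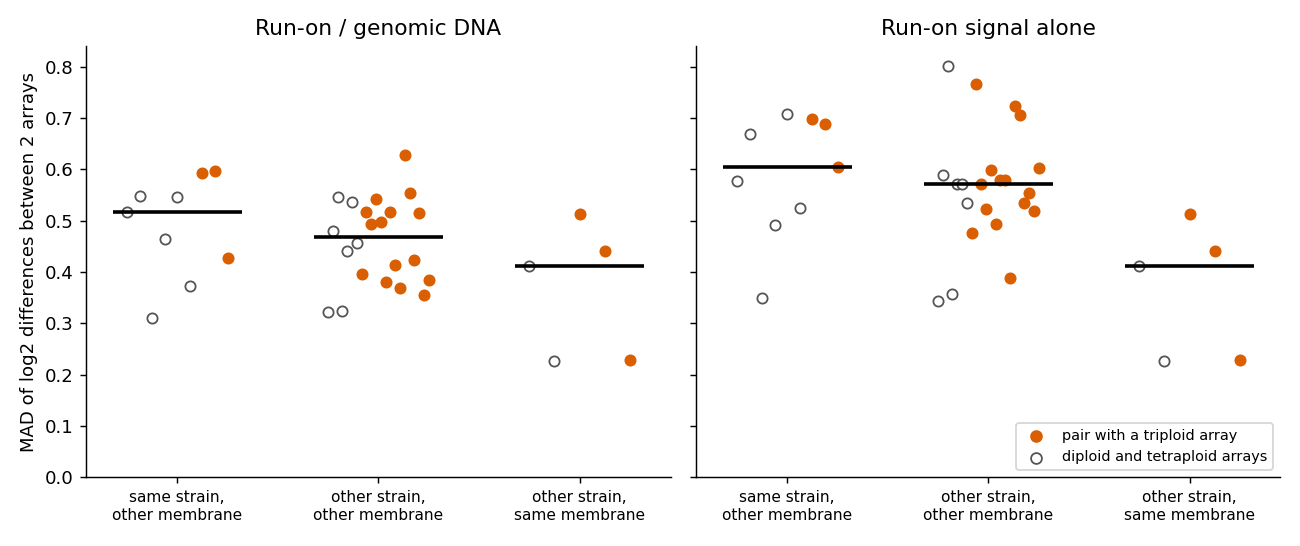
Distance between each pair of the 9 polyploid arrays, as the MAD over spots of their log2 differences, for run-on over genomic DNA (left) and run-on signal alone (right). Points are pairs, filled where a triploid array takes part, and bars are medians of 0.517, 0.468 and 0.411 from left to right in the left panel. Pairs of the same strain never share a membrane or a run-on number, so the classes differ in more than strain.

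For the comparison spot by spot, each array's log2 ratios were centred on the array median, which removes the overall level, and limma fitted the strain means over all 18 arrays together. The contrast was the triploid mean minus the average of the diploid and tetraploid means. In it a change of the log2 ratio that is linear in chromosome number cancels, whereas a signal in proportion to chromosome number would not cancel fully. A call needed an adjusted p (Benjamini-Hochberg, over all spots tested) under 0.05. Limma called 0 of 5929 spots (0%), and its lowest adjusted p was 0.9998. At an unadjusted p under 0.05 there were 108 spots, or 1.82%, against 5%, or 296 spots, for p-values spread evenly. The differences ranged from -2.25 to 4.04, with 95% of them within 0.49 of 0 (1.40-fold), and 46 spots differed by more than 1. Of those 46, S/N of at least 2 on all 9 arrays was met by 3, and 33 had it on no array. The median standard error of a difference was 0.22.

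Set against each even strain on its own, the triploid had no called spot either. Limma called 0 of 5929 spots between triploid and diploid (0%), with 166 (2.80%) at an unadjusted p under 0.05 and a median absolute difference of 0.16. Between triploid and tetraploid it called 0 of 5930 (0%), with 48 (0.809%) at an unadjusted p under 0.05 and a median absolute difference of 0.12. Between tetraploid and diploid, the even strains, it called 0 of 5930 (0%), with 59 (0.995%) at an unadjusted p under 0.05 and a median absolute difference of 0.13. The lowest adjusted p was 0.9997, 0.9993 and 0.9995 in turn. The triploid values enter the first and second of these comparisons, so they are not independent of each other. The triploid mean lay between the means of the even strains at 1737 of the 5872 spots with a value on all 9 arrays (29.6%), above both at 2139 (36.4%) and below both at 1996 (34.0%).

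In the same fit, a comparison that takes in the haploid arrays did make calls, which does not show what odd-against-even difference could be called. The mean of the 3 polyploid strains, set against the haploid, was called by limma at 102 of 5927 spots (1.72%), with 9 higher and 93 lower in the polyploids and 667 spots (11.3%) at an unadjusted p under 0.05. This comparison was added after the data were seen. It sets strains of other names against BY4741, and the haploid arrays lay on other membranes in part. At those 102 spots the median difference of the polyploids from the haploid was -1.06, while the median difference of the triploid from the even strains was 0.03 and its median size 0.16, beside 0.12 over all tested spots. Of the 102 spots, 90 (88.2%) had their odd-against-even interval inside a 2-fold change, near the 86.5% of all spots, and 5 (4.90%) had an unadjusted p under 0.05, beside 1.82% of all tested spots. No test was made of that difference.

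The size of difference that these arrays exclude followed from the interval at each spot. The interval's end that lay farther from 0, its outer bound, was 0.61 at the median spot, or 1.53-fold, and 1.11 at the 90th percentile, or 2.16-fold. The median interval reached 0.47 to either side of its estimate. A 3-fold change was excluded at 5685 spots (95.9%) and a 4-fold change at 5814 (98.1%). For scale, if run-on followed copy number, 4 copies of a gene in place of 3 would give 0.42 on the log2 scale, and 2 in place of 3 would give -0.58. The interval left out a rise of 0.42 at 2299 spots (38.8%), a fall of 0.58 at 4002 (67.5%), and both at 1430 (24.1%). These intervals hold spot by spot. When widened to cover all 5929 spots at once by Bonferroni's rule, the median outer bound rose to 1.58 (2.99-fold), and 225 spots (3.79%) remained inside a 2-fold change. By 2 one-sided tests of equivalence in the limma fit, with Benjamini-Hochberg adjustment, 5343 spots (90.1%) were within 2-fold at an adjusted p under 0.05. For tetraploid against diploid, with fewer arrays on 1 side of the contrast, the interval lay inside a 2-fold change at 4865 spots (82.0%).

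**Figure D3:**
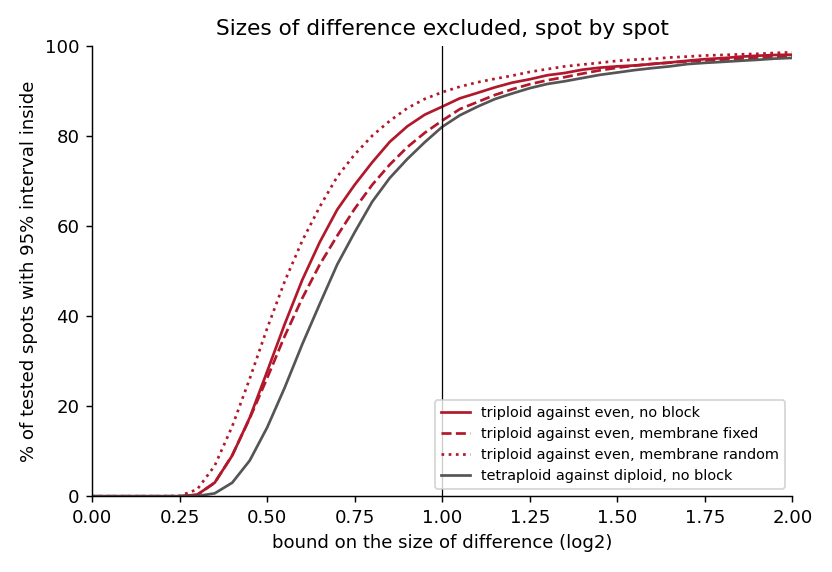
Share of tested spots (percent) whose 95% interval lies inside plus or minus the bound on the horizontal axis (log2), for triploid against the even strains without a block, with membrane as a fixed block and as a random block, and for tetraploid against diploid. At a bound of 1, a 2-fold change, the shares are 86.5%, 83.4%, 89.7% and 82.0%.

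Membranes were shared unevenly between the strains. The diploid arrays lay on membranes 16, 17 and 18, the triploid arrays on 18, 12 and 13, and the tetraploid arrays on 17, 18 and 12. Membranes 13 and 16 held only 1 polyploid strain each and were tied to the rest through the haploid and deletion arrays. With membrane as a fixed block limma called 0 of 5919 spots, with 173 (2.92%) at an unadjusted p under 0.05 and a lowest adjusted p of 0.9995. The outer bound at the median spot was then 0.64 (1.56-fold), and 4938 spots (83.4%) lay within 2-fold. The differences with and without the block correlated across spots with r = 0.671. With membrane as a random block, at a consensus correlation of 0.279, limma called 0 of 5929 spots, with 145 (2.45%) at an unadjusted p under 0.05, a median outer bound of 0.56 (1.48-fold) and 5320 spots (89.7%) within 2-fold. The correlation with the differences without a block was 0.963.

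When the 9 polyploid arrays alone were fitted with membrane as a fixed block, 2 residual degrees of freedom were left per spot, and 1509 of 5906 spots (25.6%) had an unadjusted p under 0.05. Limma then called 1 spot, lower in the triploid, at row 5, column 19, position 11, with a difference of -1.77 (SE 0.14, adjusted p = 0.0441). In the fit of all 18 arrays without a block its difference was -1.21 (SE 0.42, adjusted p = 0.9998). Its S/N lay between 0.123 and 0.755 on the 9 arrays, so the spot was not well above background on any of them. The same setting called 3 spots between triploid and diploid and 1 between tetraploid and diploid, each with S/N under 2 on all 9 arrays, and 0 between triploid and tetraploid, where 696 spots (11.8%) had an unadjusted p under 0.05.

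Dim spots had the widest intervals. With the tested spots split by mean run-on signal into 4 bins of equal size, 66.3% of the dimmest bin had an interval within 2-fold, against 91.8%, 94.3% and 93.8% in the next 3 bins. The interval reached 0.62 to either side at the median spot of the dimmest bin and 0.43 in the brightest. Of the 3988 spots with S/N of at least 2 on all 9 arrays, 3748 (94.0%) lay within 2-fold. Of the 464 spots that met it on no array, 196 (42.2%) did. The 799 spots whose interval reached beyond 2-fold included 559 (70.0%) that lacked an S/N of 2 on at least 1 array.

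**Figure D4:**
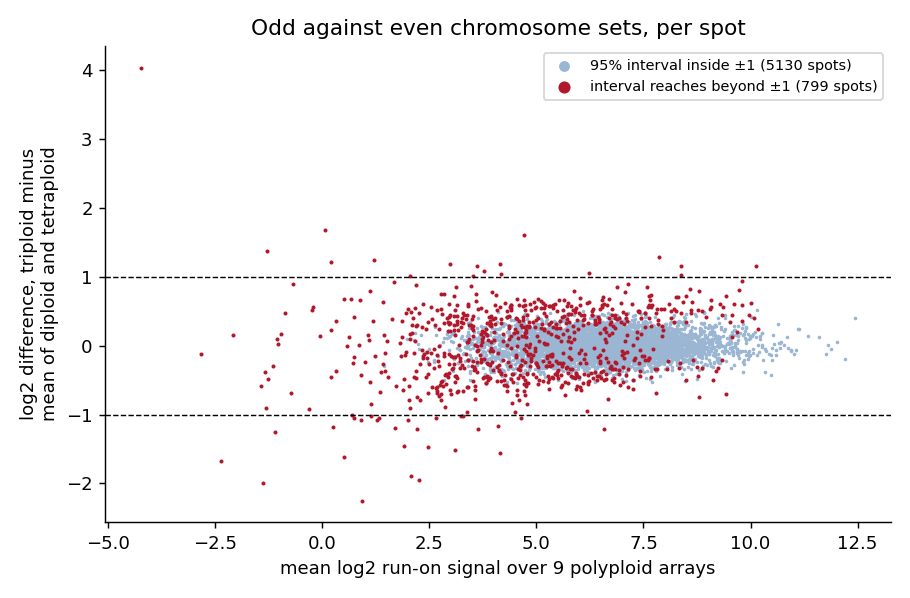
Log2 difference of the triploid from the mean of diploid and tetraploid at each tested spot, against the mean log2 run-on signal over the 9 arrays, with dashed lines at a 2-fold change. The 799 spots in red have an interval reaching beyond 2-fold and crowd the low-signal side, and the 5130 in blue lie within it.

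Complete separation of the arrays was rare. With the 84 ways to choose 3 of 9 arrays equally likely, a fraction of 0.0119 of spots would separate in each direction. Both shares found were smaller. At 25 of 5872 spots with all 9 values (0.426%) the 3 triploid values lay above all 6 even values, by a fitted difference of 0.17 to 0.75 with a median of 0.42. At 30 spots (0.511%) they lay below all 6, by a fitted difference of -1.62 to -0.18 with a median of -0.40. None of these was called by limma. Without triploid array 1 the counts were 200 above and 209 below. Without triploid array 3 they were 180 and 169, and without triploid array 2 they were 114 and 82. Without diploid array 1 they were 65 and 68, and without tetraploid array 3 they were 75 and 57. Leaving out an array can only keep or raise such a count. It also leaves fewer ways to choose, so the fraction of 0.0119 does not apply to these counts. With all ways equally likely, a larger fraction would separate, and more so without a triploid array than without an even one. Whether the counts depart from those fractions was not tested. The count above was 43 without tetraploid array 1, and the count below was 47 without tetraploid array 2.

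The spots with the smallest p in each direction, given as not called, show how the 9 values stood. The spot at row 10, column 6, position 1 had S/N of at least 17.8 on each of the 9 arrays. Its centred log2 ratio was 1.29, 1.65 and 1.69 in the triploid. It was 1.03, 0.83 and 1.05 in the diploid and 0.88, 1.12 and 1.40 in the tetraploid. Triploid array 1 lay below tetraploid array 3, so the groups overlapped. The haploid, at 1.20 ± 0.11 (SD, n = 3), lay within the range of the even arrays. The difference was 0.49 (SE 0.14, 95% interval 0.18 to 0.80, limma adjusted p = 0.9998). With membrane as a fixed block it was 0.31 (adjusted p = 0.9995), and within membranes it was 0.24 and 0.17 on membrane 18, against diploid and tetraploid, and 0.25 on membrane 12.

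At row 10, column 7, position 7, the triploid arrays read 3.16, 3.24 and 2.57. The diploid arrays read 2.53, 1.81 and 2.21, and the tetraploid arrays read 2.41, 2.22 and 2.75. Triploid array 3 lay below tetraploid array 3, and the other triploid arrays lay above all 6 even arrays. The difference was 0.67 (SE 0.21, 95% interval 0.23 to 1.10, limma adjusted p = 0.9998), and 0.71 with membrane as a fixed block. On membrane 18 the triploid was higher than the diploid by 0.95 and than the tetraploid by 0.94, and on membrane 12 it was higher than the tetraploid by 0.48. Genomic DNA at this spot had an S/N of 1.15 on membrane 18, under the 2 used for a signal above background.

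At row 5, column 3, position 16, the triploid arrays read -1.69, -1.98 and -2.43, below all 6 even arrays. The diploid arrays read -1.01, -1.05 and -1.43, and the tetraploid arrays read -0.85, -1.32 and -1.57. The haploid, at -0.14 ± 0.22 (SD, n = 3), lay above all 9 polyploid arrays. The difference was -0.83 (SE 0.20, 95% interval -1.26 to -0.40, limma adjusted p = 0.9998). With membrane as a fixed block it was -0.35 (adjusted p = 0.9995), and within membranes it was -0.26 and -0.37 on membrane 18 and -0.41 on membrane 12. Both triploid arrays 2 and 3 had an S/N under 2, at 0.708 and 0.769, and so did 2 of the 6 even arrays, so these lowest values were not well above background. Genomic DNA at this spot had an S/N of 1.20 on membrane 13, which carried the lowest triploid value, and of 0.62 on membrane 16, which carried diploid array 1. Taken from the density without background subtraction, the difference was -0.39. This was also the only 1 of the 6144 spots with a signal of 0 on all 3 cln3 deletion arrays and above 0 on the other 15. The files give it no gene name.

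At row 8, column 7, position 1, the triploid arrays read -6.98, -4.76 and -4.65, below all 6 even arrays, which read -3.75, -3.90 and -4.62 in the diploid and -3.99, -3.64 and -4.07 in the tetraploid. The gap between the sets was small beside the distance from triploid array 1 to the other triploid arrays. The S/N was 0.105 to 0.258 in the triploid, and 1 of the 6 even arrays reached 2, so no difference is given. Limma did not call the spot (adjusted p = 0.9998).

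**Figure D5:**
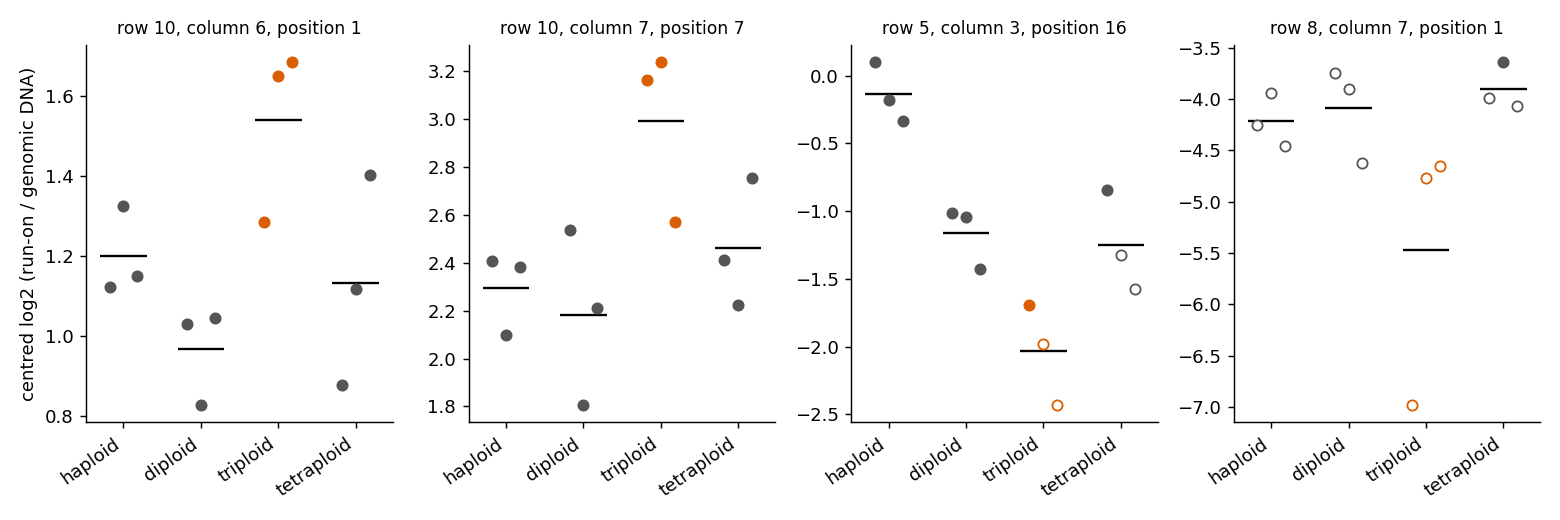
Centred log2 of run-on over genomic DNA on each haploid, diploid, triploid and tetraploid array at the 4 spots with the smallest p, with a bar for each strain's mean and open symbols where S/N is under 2. Each vertical axis has its own range, the triploid overlaps the even arrays in the left pair of panels and lies below them in the right pair, and none of the 4 differences was called.

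The differences followed place on the membrane. The median odd-against-even difference was above 0 in each of block columns 1 to 12, from 0.02 to 0.10 (column 8), and below 0 in each of columns 13 to 24, from -0.01 to -0.12 (column 23). It was below 0 in each of block rows 1 to 10, down to -0.05 (row 3), and above 0 in each of rows 11 to 16, up to 0.09 (row 13). For tetraploid against diploid the column medians ran from -0.10 (column 1) to 0.06 (column 24). They did not split in that way, with values of both signs among columns 1 to 12 and among columns 13 to 24. The row medians ran from -0.07 (row 6) to 0.20 (row 16), a higher top than for odd against even. They too followed place, below 0 in each of rows 2 to 12 and above 0 in row 1 and in each of rows 13 to 16. Each median is over 240 to 376 spots. The part of place in the difference at a spot was not tested.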

How the data were processed

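Per the labels' protocols, cells permeabilised with sarkosyl were labelled with 33P-UTP. Per the file headers, the deposited density column is an intensity per area, and the background-subtracted intensity used here was deposited by the authors in the same unit, while the deposited S/N is a score of signal over background. The MAD normalisation named in the series' design text is not visible in the deposited intensities, and no source used here names the imaging program. Run-on number and membrane come from the deposited array names.

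Spot values are log2 of run-on over genomic DNA intensity on the same membrane, centred on the array median. A spot with genomic DNA at 0 on any of the 7 membranes was dropped, as was a spot where no polyploid strain had 3 run-on values above 0, which left out 213 of 6144 spots, 191 for genomic DNA. Of the 5931 kept, 5929 had values enough for the contrast. Signals of 0 among them were missing (94 values, 0.176%, on the 9 arrays). Strain means over 18 arrays were fitted with limma 3.58.1 in R 4.3.3 (statmod 1.5.0 for the random block), with 12 residual degrees of freedom. The scripts were tested on simulated data with independent noise on each array. That noise had no part shared by membrane or run-on number, so the test does not bear on such sharing.

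Members and tests were chosen with earlier results of these data known, and the S/N of 2 was chosen after the data were seen. Named spots are the 2 smallest p per direction with values on all 9 arrays, since none was called. Deviations from strain means correlated between same-numbered triploid and diploid arrays at 0.19, 0.16 and -0.02. Between triploid and tetraploid arrays they correlated at 0.36, -0.33 and 0.08, and between tetraploid and diploid arrays at 0.41, -0.21 and 0.08. Each run-on 1 value was positive, while the signs were mixed for run-on 2 and for run-on 3. The main fit left run-on number out, and fits with it as a replicate block are given below. The number of arrays limits the precision.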

Additional observations from a re-analysis of the deposited data

How the results depend on the processing

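With 25 alternatives of scaling, genomic DNA, background, filter, block, samples and moderation, limma called 0 spots for odd against even in 24 and 1 in the fit of the 9 polyploid arrays with membrane as a fixed block, which also called 3 for triploid against diploid and 1 for tetraploid against diploid (lowest adjusted p 0.0441, 0.0367 and 0.041). Triploid against tetraploid had 0 calls in all 25, with a lowest adjusted p of 0.0757. The share of spots within 2-fold ran from 77.1% (4569 spots, without triploid array 3) to 96.0% (5658 spots, both blocks), and the median outer bound from 0.43 to 0.73. It was 77.4% and 80.1% without triploid array 1 and 2. With run-on number as a replicate block, odd against even had 0 calls, 201 spots at an unadjusted p under 0.05 and 89.3% within 2-fold, and with both blocks 0 calls and 613 such spots. Against 108 such spots without a block, the count was 430 of 5919 without the 6 run-on 1 arrays, a choice made after the data were seen. That share, too, was above 5%. The count was 233, 252, 227, 192 and 69 without diploid 1, triploid 1, triploid 3, tetraploid 3 and triploid 2, each below 5%. Leaving out 1 array at a time, the level difference ran from -0.0204 to 0.681, against 0.37, and the spread difference from -0.00953 to 0.0271. The level difference was 0.107 with no genomic DNA division, 0.118 with the mean genomic DNA of the membranes and 0.761 without the 6 run-on 1 arrays. The spread difference was -0.0286 for density without background subtraction and -0.0173 without the 6 run-on 1 arrays. The count of spots with the triploid below all even arrays was 18, against 30, with the S/N filter. Without the run-on 1 arrays the counts above and below were 462 and 398. Far fewer ways to choose the triploid arrays were then left, so a larger fraction than 0.0119 would separate with all ways equally likely. These counts are therefore not comparable with those from all 9 arrays. Calls for polyploids against haploid were 53 with membrane fixed, 195 with the replicate block and 424 with both, against 102. All 4 named spots kept their direction wherever they had a value, with a lowest adjusted p of 0.0942. The cause of these movements was not tested. Intervals were widest where signal over background was low, and no array shows a level per cell.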
